A study of Homo sapiens with 6 samples.

Results

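Keratin-associated proteins are small structural proteins of the hair shaft, and their KRTAP genes were followed here in RNA from extracellular vesicles of a squamous carcinoma line. Members were all rows of the count table whose symbol was KRTAP followed by a digit, without pseudogenes and antisense genes, and 93 of 38167 genes met this rule. They belonged to 26 numbered families. The working description of the set as silent and GC-rich held only in part. GC content of the longest transcript had a median of 53.2% (36.4% to 67.1%) against 48.9% for 19249 protein-coding genes, and 66 members lay above that value. Counts were small, and most members had counts above 0 in every library, as described below.

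In the hair cortex and cuticle, keratin filaments are embedded in a matrix of keratin-associated proteins, which are cross-linked to each other and to the hair keratins by disulphide bonds between cysteines. Most KRTAP genes have a single exon and lie in tight clusters, and they are switched on late, in cells that are about to become the hardened shaft. The proteins are sorted by composition into ultrahigh sulfur and high sulfur types, both rich in cysteine, and a type rich in glycine and tyrosine. HOXC13 and FOXN1 are transcription factors needed for hair shaft formation.

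All 6 libraries came from Cal27, an established human tongue squamous carcinoma line, grown as spheroids for 14 days. The soft group (n = 3) had Matrigel, a basement membrane gel, at 3 mg/mL and the stiff group (n = 3) at 12 mg/mL, and no other treatment was labelled. Small vesicles were taken from the medium with a dielectrophoresis device and their total RNA was sequenced. The labels call the libraries of a group biological replicates, all from 1 cell line, and do not say whether they came from separate cultures, so p-values measure the spread between these libraries. Totals ran from 2445498 to 2977837 counts. Soft replicate 3 stood apart from its group: its chi-square per degree of freedom was 3.86 and 2.86 against the other soft libraries, where the remaining replicate pairs had 1.53 to 1.70. In bulk vesicle RNA, fewer vesicles that carry a transcript and less of it per vesicle cannot be told apart.

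Coding stretches of 120 bases show how the composition of these genes differs. Each is the in-frame stretch with the most cysteine codons in a member, read 5′ to 3′ on the gene's strand from GENCODE 29 transcripts (GRCh38), with cysteine codons in capitals. Shown are the member with the most counts in each cluster and the members with the highest and the lowest GC content.
KRTAP5-2 (chr11:1597726-1597845, minus strand): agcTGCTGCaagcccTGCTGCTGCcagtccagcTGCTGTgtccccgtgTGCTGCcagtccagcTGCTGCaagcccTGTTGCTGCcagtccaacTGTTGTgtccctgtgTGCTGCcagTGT
KRTAP5-7 (chr11:71527631-71527750, plus strand): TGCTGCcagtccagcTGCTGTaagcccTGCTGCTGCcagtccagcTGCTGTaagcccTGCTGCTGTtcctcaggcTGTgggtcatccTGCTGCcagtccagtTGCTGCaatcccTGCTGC
KRTAP16-1 (chr17:41308555-41308674, minus strand): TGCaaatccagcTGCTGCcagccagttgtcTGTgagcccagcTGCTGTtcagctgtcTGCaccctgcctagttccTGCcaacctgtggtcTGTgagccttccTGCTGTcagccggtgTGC
KRTAP26-1 (chr21:30319760-30319879, minus strand): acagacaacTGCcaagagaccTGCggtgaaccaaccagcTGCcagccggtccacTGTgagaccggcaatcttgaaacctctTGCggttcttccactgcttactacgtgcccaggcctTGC
KRTAP21-3 (chr21:30718640-30718759, minus strand): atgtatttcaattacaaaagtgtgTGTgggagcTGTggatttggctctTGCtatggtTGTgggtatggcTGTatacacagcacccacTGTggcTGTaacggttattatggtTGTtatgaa
KRTAP10-9 (chr21:44627727-44627846, plus strand): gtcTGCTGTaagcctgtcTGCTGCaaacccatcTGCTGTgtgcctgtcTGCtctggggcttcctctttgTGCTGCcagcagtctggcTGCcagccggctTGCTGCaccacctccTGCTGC
KRTAP10-12 (chr21:44697478-44697597, plus strand): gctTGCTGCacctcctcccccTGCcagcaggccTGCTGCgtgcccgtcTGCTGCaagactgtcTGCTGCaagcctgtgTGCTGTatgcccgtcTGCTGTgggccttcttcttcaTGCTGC
Of the 40 codons in each stretch, 19 coded for cysteine in KRTAP5-2 and KRTAP5-7, 15 in KRTAP10-12, 14 in KRTAP10-9, 12 in KRTAP16-1, 8 in KRTAP21-3 and 6 in KRTAP26-1. GC content ran from 42.5% in the KRTAP21-3 stretch, which is rich in glycine and tyrosine codons, to 63.3% in that of KRTAP10-12.

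By position the 93 members fell into 5 clusters, with neighbours at most 1 Mb apart. A pair lay on chromosome 11, with 6 genes of family KRTAP5 at 11p15 and the other 5 at 11q13. The cluster at 17q21 held 33 genes, among them families KRTAP1 to KRTAP4 and KRTAP9. On chromosome 21 a proximal cluster held 33 genes, including all 22 of the glycine-tyrosine type, and a distal one held 16, which were families KRTAP10 and KRTAP12. Median GC content was 62.4% at 11p15, 56.6% at 11q13, 52.9% at 17q21, 47.6% in the proximal and 65.3% in the distal cluster of chromosome 21. The medians of 11p15, 11q13 and the distal cluster therefore stood above that of the family, and the proximal cluster stood below that of all protein-coding genes. Cysteine took a median of 32.4%, 35.3%, 32.5%, 10.3% and 25.8% of codons in the same order. Every member had 1 exon in its longest coding transcript, and 79 had 1 exon in all GENCODE transcripts.

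Upstream of the start the matched members had a lower median GC content than all promoters, less so in the distal cluster. A part of them had a TATA element. RefSeq promoter windows (GRCh38.p14) were matched for 79 of the 93 members. Over 250 bases before the start their GC content had a median of 40.8%, against 58.0% for 27305 promoters in the table and 37.2% for 312 olfactory receptor genes, a family read in sensory neurons of the nose. The median was 40.4% at 17q21, 37.0% in the proximal and 53.2% in the distal cluster of chromosome 21. At 11p15 and 11q13 just 1 member each was matched (47.2% and 54.0%), so the family median hardly covers these clusters. The letters TATAAA stood on the gene's strand 45 to 16 bases before the start in 35 members (44.3%), and in 2.63% of all promoters and 1.92% of those of olfactory receptors. The reverse complement TTTATA stood there in 0 members and 0.798% of all promoters. By cluster TATAAA stood there in 16 of 32 members at 17q21, 7 of 15 in the distal and 11 of 30 in the proximal cluster of chromosome 21. Windows of 80 bases up to the start are shown for the members with the most counts at 17q21 and in both clusters of chromosome 21. The element, in capitals, stood 29 bases before the start in KRTAP16-1 and KRTAP10-9, and KRTAP26-1 had none, as had KRTAP21-3 and KRTAP10-12.
KRTAP16-1 promoter (chr17:41309310-41309389, minus strand): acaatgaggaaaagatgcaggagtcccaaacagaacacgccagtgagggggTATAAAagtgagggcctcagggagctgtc
KRTAP10-9 promoter (chr21:44627013-44627092, plus strand): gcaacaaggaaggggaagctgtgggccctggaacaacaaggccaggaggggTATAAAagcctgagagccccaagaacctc
KRTAP26-1 promoter (chr21:30320316-30320395, minus strand): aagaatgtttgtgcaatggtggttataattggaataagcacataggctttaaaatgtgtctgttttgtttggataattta
A match describes these letters and no binding was measured.

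Without regard to GC content, KRTAP genes had about as many counts for their length as other protein-coding genes. Within bands of GC content their medians were lower, as given below. Counts per kb of exon, as the mean of the 6 libraries, had a median of 17.9 over the 93 members, of 16.1 over all protein-coding genes and of 11.3 over 381 olfactory receptor genes. The olfactory receptor genes had a median GC content of 43.1% against 53.2% for the members, so these medians were not matched in GC content. By GC band the receptor medians were 9.10 under 40%, 10.86 between 40% and 45% and 13.02 between 45% and 50%. Between 50% and 55% the receptor median was 15.26 (31 genes), and between 55% and 60% it was 23.27 (8 genes). Set beside the member medians given below, receptors were higher between 40% and 45% and between 55% and 60%. Members were higher in the other bands under 60%, and the differences were not tested. In single libraries the family median lay between 16.6 and 19.2. KRT5, a keratin of basal squamous cells that is a marker of the labelled cell type, had 19.7 counts per kb. KRT17 and KRT14, also taken as squamous epithelial markers, had 21.5 and 31.1. Levels of the hair genes were thus in the range of those of the epithelial keratins, and so were those of many protein-coding genes. The interquartile range of all protein-coding genes was 10.6 to 25.2 counts per kb, which held KRT5 and KRT17. For protein-coding genes of 55% to 60% GC, the band of KRT5 and KRT17, the median was 22.9. The match with these keratins therefore does not show that the hair genes were active. Equally, counts alone do not set the family apart as silent. Raw counts were nevertheless small. They ran from 0 to 71 per library, 43 members had at least 10 in every library, and 6 had 0 in at least 1 library, where a count of 0 allows up to 3 counts.

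Over the whole family, members of higher GC content had higher levels, and within single clusters this held mainly at 17q21. Across the 93 members the correlation of counts per kb with GC content was r = 0.74 (Spearman 0.77), and across all protein-coding genes it was 0.57 (0.65). Within clusters r was 0.70 at 17q21 (33 genes), 0.35 in the proximal (33) and −0.07 in the distal cluster of chromosome 21 (16), 0.29 at 11p15 (6) and −0.14 at 11q13 (5). These are descriptions across genes, which share libraries and depth. In every GC band the median of the members lay under that of protein-coding genes, and the differences were not tested. Under 40% it was 9.69 against 9.74 counts per kb (2 members), and between 40% and 45% 10.4 against 11.8 (7 members). Between 55% and 60% it was 20.4 against 22.9 (15 members). In the band of 45% to 50% GC the median was 13.2 counts per kb for 23 members and 14.4 for 3305 protein-coding genes. Between 50% and 55% it was 16.7 for 22 members and 17.5 for 3131 genes, and between 60% and 65% it was 30.1 for 14 members and 31.7 for 2121 genes. The gap was widest at 65% and more, at 28.7 for 10 members against 47.2 for 746 genes. Of these 10 members 9 lay below the band median. That band has no upper end: protein-coding genes reached 76.8% GC and members 67.1%, so the 2 were not matched in GC content.

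**Figure D1:**
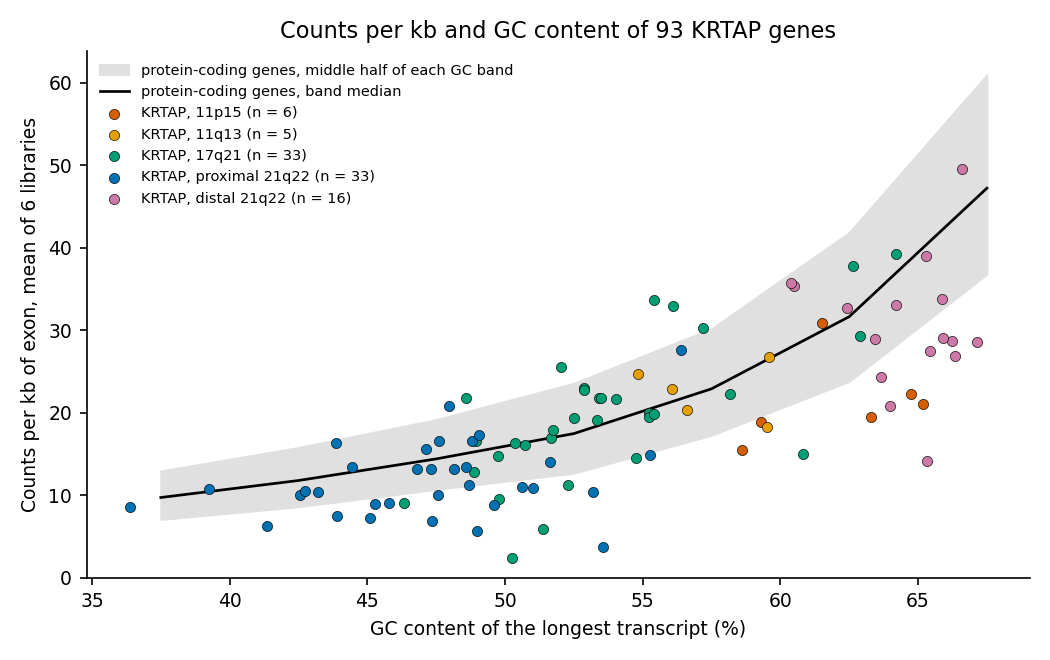
Counts per kb of exon (mean of 6 libraries) against GC content of the longest transcript for 93 KRTAP genes, coloured by cluster, with the median (line) and the interquartile range (grey) of protein-coding genes in bands of GC content. Members rise with GC content from a median of 10.4 in the band of 40% to 45% to 30.1 in that of 60% to 65%, and 9 of 10 members of 65% and more lie under the line. The last band is open at the top, and no member exceeds 67.1%.

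By cluster the order of levels was that of GC content except that 11p15 and 11q13 changed places. Median counts per kb were 10.9 in the proximal cluster of chromosome 21, 19.5 at 17q21, 20.3 at 11p15, 22.9 at 11q13 and 29.04 in the distal cluster of chromosome 21. Neighbours in this order from 17q21 to 11q13 overlapped widely, with ranges of 2.43 to 39.2, 15.5 to 30.9 and 18.3 to 26.8 counts per kb. KRTAP10-9, of the high sulfur type, had the highest level at 49.5 counts per kb. The lowest was that of KRTAP9-6, of the ultrahigh sulfur type, at 2.43, and over the shorter RefSeq span of that gene it was 6.56. Genes of the glycine-tyrosine type had a median of 10.9 counts per kb (22 genes), those of the high sulfur type 24.9 (40 genes) and those of the ultrahigh sulfur type 19.5 (31 genes).

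All 16 genes of the distal cluster lie within TSPEAR, a gene of the inner ear and ectodermal appendages on the minus strand of chromosome 21. The 8 genes on the same strand as TSPEAR had 28.9 counts per kb (median) and the 8 on the other strand 30.8. Per library the ratio of summed counts per kb, same strand over other strand, was 0.797, 1.03 and 1.12 in soft gel and 0.951, 0.965 and 0.983 in stiff gel. Neither strand was thus higher throughout. TSPEAR itself had 135, 120 and 95 counts in soft gel and 104, 166 and 134 in stiff gel, and 28.1 counts per kb. On the log2 scale stiff over soft was 0.28 ± 0.13 (SE; edgeR adjusted p = 0.476). KRTAP5-1 and KRTAP5-2 lie opposite KRTAP5-AS1, which had 35 to 50 counts in soft gel and 40 to 67 in stiff gel, and since the strand setting of the counting is not given in the sources used here, reads of KRTAP5-2 and of the antisense gene cannot be told apart.

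Copies within a family share sequence. Of the 93 members, 55 shared at least 1 stretch of 61 bases, the read length, with another member, and for 10 this was over 25% of such stretches. It was 37.55% to 61.3% for the 4 KRTAP2 genes, 75.7% for KRTAP9-2 and 72.8% for KRTAP9-8, whose single values are uncertain because reads could be split or lost between copies.

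Summed over all 93 members, KRTAP counts were at the same level in both conditions once libraries were scaled by TMM, which sets the middle of all genes to no change. In replicate order, here and below, raw sums were 1665, 1596 and 1627 in soft gel and 1422, 1648 and 1579 in stiff gel. The scaled sums were 601 ± 19.7 CPM (counts scaled to a common library size) in soft and 601 ± 16.97 in stiff (SD, n = 3 each), a ratio of 1.00, and the groups overlapped. As a share of all counts the family took 0.0651% ± 0.00264 in soft gel and 0.0542% ± 0.00229 in stiff gel, with groups that did not overlap. That ratio of 0.833 stood beside a like shift in the whole table: scaled by library totals alone, all genes tested had a median of −0.27 on the log2 scale, and 31 genes were called higher and 4163 lower, where TMM gave 89 and 51.

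No single KRTAP gene differed between the conditions at an adjusted p under 0.05. Of the 93 members 56 passed the filter on low counts and were tested, and 0 were called by edgeR, where 0.451% of all 31074 genes tested were. With limma-voom 0 were called as well. DESeq2 called 0 too, but its own filters left the tested members named below without an adjusted p, so it could not call them. Without its filters DESeq2 gave KRTAP1-5 an adjusted p of 0.837. At an unadjusted p under 0.05, edgeR gave 5 members higher and 3 lower in stiff, or 14.3% of the 56, beside 9.51% of all genes tested (5.01% higher and 4.50% lower). Of the 56, groups did not overlap in CPM for 7 that were higher in stiff and 6 that were lower. Both were larger shares than those of all genes tested (14.1%, with 7.38% higher and 6.76% lower), and the difference was not tested. The median log2 fold change of the 56 was −0.06, with 25 above 0, and that of all genes tested was −0.00484, with 49.1% above 0. In a fit without the filter all 93 members had a value, with a median of −0.04 and 45 above 0. Precision was limited by the small counts: standard errors of the 56 ran from 0.19 to 0.49 on the log2 scale. Within groups the counts varied by a chi-square of 1.58 per degree of freedom over the 93 members, against 1.49 for 17564 other genes of 10 to 60 counts.

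Cluster by cluster, the summed levels of both groups overlapped. At 11p15 the sums were 41.1, 37.7 and 42.6 CPM in soft gel and 47.3, 52.5 and 40.3 in stiff gel, a ratio of 1.15, with 2 stiff libraries above all soft ones. At 11q13, which holds the other genes of the same family, the soft sums were 68.96, 49.3 and 53.9 CPM and the stiff sums 42.8, 57.4 and 55.5, a ratio of 0.904. The clusters of family KRTAP5 thus stood on opposite sides of 1, and in both the groups overlapped. At 17q21 the means were 227 ± 6.50 and 230 ± 16.7 CPM (SD, n = 3 each; ratio 1.01). In the proximal cluster of chromosome 21 they were 79.5 ± 7.80 and 80.4 ± 11.05 (ratio 1.01), and in the distal cluster 196 ± 14.1 and 193 ± 14.0 (ratio 0.981). Single genes gave medians of the log2 fold change of 0.25 at 11p15 (4 of 6 above 0), −0.30 at 11q13 (1 of 5), −0.16 at 17q21 (12 of 27), 0.03 in the proximal (2 of 4) and −0.05 in the distal cluster (6 of 14), so at 17q21 the sum and the median lay on opposite sides of no change. By type of protein the ratios were 0.963 for ultrahigh sulfur, 1.03 for high sulfur and 1.01 for glycine-tyrosine genes. Of the last, 0 of 22 passed the filter on low counts.

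**Figure D2:**
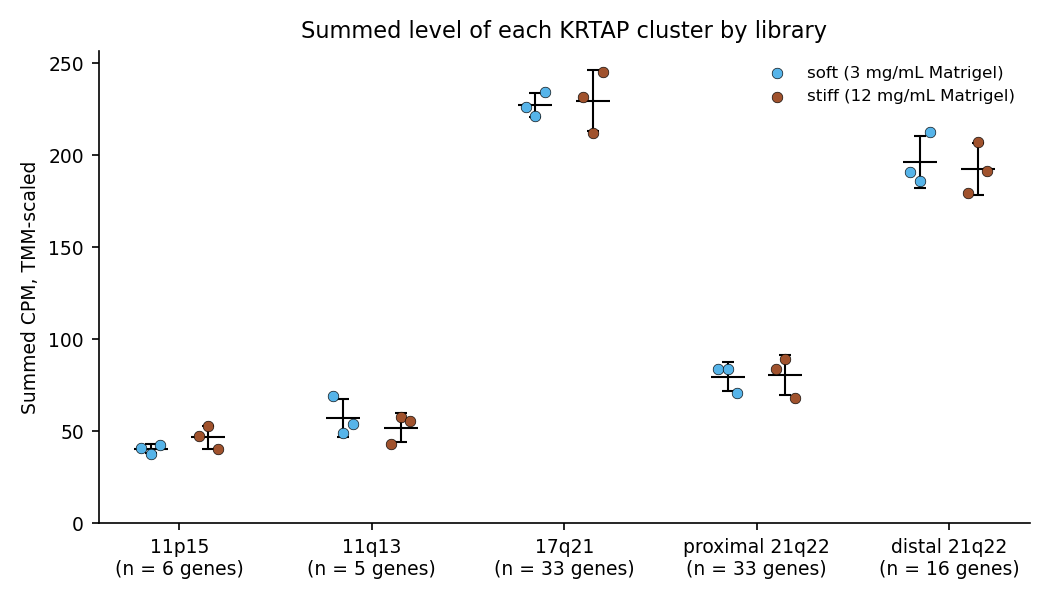
Summed TMM-scaled CPM of each KRTAP cluster in each library (points), with the mean and SD of 3 soft and 3 stiff libraries (bars). Soft and stiff libraries overlap in every cluster, and the widest gap between means is that at 11p15, 40.5 against 46.7 CPM.

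Among members with larger values in stiff libraries, KRTAP15-1 had the largest fold change. It encodes a high sulfur protein of the proximal cluster on chromosome 21 (chr21:30440275-30440869) and had 6, 3 and 4 counts in soft gel and 13, 14 and 13 in stiff gel. Every stiff library was above every soft one. This gave a log2 fold change of 1.67 ± 0.49 (SE, n = 3 per group, edgeR adjusted p = 0.102). KRTAP15-1 was the 1 tested member that passed the filter only through the group in which it was high. All its soft libraries were under 10 counts. KRTAP3-3, and KRTAP9-4 and KRTAP1-5 below, passed in part through their higher group. Each had a library under 10 counts in its lower group, so the lower group alone would not have given 3 libraries at that level. KRTAP3-3, a high sulfur gene at 17q21 (chr17:40993430-40994164), had 10, 10 and 8 counts in soft gel and 23, 16 and 25 in stiff gel (1.259 ± 0.37, adjusted p = 0.113). KRTAP4-6, an ultrahigh sulfur gene of the same cluster (chr17:41139433-41140544), had 17, 10 and 21 in soft gel and 20, 37 and 32 in stiff gel (0.95 ± 0.31, adjusted p = 0.170). Raw counts of KRTAP4-6 overlapped at 20 and 21, and scaled values did not. KRTAP5-10 at 11q13 had 17, 13 and 19 counts in soft gel and 12, 36 and 32 in stiff gel (0.77 ± 0.32, adjusted p = 0.355), with 1 stiff library below all soft ones.

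KRTAP2-3, the fifth of these, belongs to a family of high sulfur genes at 17q21 that share a part of their sequence and leaned the same way. It had 17, 34 and 20 in soft gel and 35, 34 and 37 in stiff gel (log2 fold change 0.65 ± 0.27, edgeR adjusted p = 0.355). The family was singled out after its values were seen. Summed over KRTAP2-1, KRTAP2-2, KRTAP2-3 and KRTAP2-4, which removes any division of reads among them, the family had 69, 107 and 84 in soft gel and 124, 113 and 124 in stiff gel. Scaled sums were 31.9 ± 6.73 and 46.8 ± 4.29 CPM (SD, n = 3 each), a ratio of 1.47, and the groups did not overlap. Groups did not overlap for 14.1% of all single genes tested either, and no such share was set up for families. None of the 4 passed the threshold (0 of 4 by edgeR, DESeq2 and limma-voom), and 1 of them, KRTAP2-3, had an unadjusted edgeR p under 0.05. DESeq2 with its filters gave KRTAP2-3 no adjusted p. With copies that share reads, the 4 are not 4 independent measurements.

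KRTAP1-5 had the most negative fold change and the lowest adjusted p of the family. This high sulfur gene at 17q21 (chr17:41026026-41027208) had 30, 34 and 19 counts in soft gel and 15, 6 and 13 in stiff gel, without overlap (log2 fold change −1.20 ± 0.34, edgeR adjusted p = 0.0827). In a fit without soft replicate 3, where 0.428% of all genes tested were called, it passed (−1.39, edgeR adjusted p = 0.0396). KRTAP9-4, an ultrahigh sulfur gene of the same cluster, had 21, 21 and 22 counts in soft gel and 8, 10 and 13 in stiff gel (−0.96 ± 0.37, adjusted p = 0.289). KRTAP4-7 had 28, 30 and 22 in soft gel and 17, 15 and 18 in stiff gel (−0.60 ± 0.31, adjusted p = 0.539). KRTAP1-4 had 7, 19 and 32 in soft gel and 16, 13 and 9 in stiff gel, a wide overlap (−0.53 ± 0.37, adjusted p = 0.691). KRTAP10-11, a high sulfur gene of the distal cluster, had 47, 42 and 56 in soft gel and 28, 40 and 30 in stiff gel (−0.49 ± 0.23, adjusted p = 0.470), without overlap. Genes with values in opposite directions thus lay side by side at 17q21, as KRTAP4-6 and KRTAP4-7 did within 1 family.

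**Figure D3:**
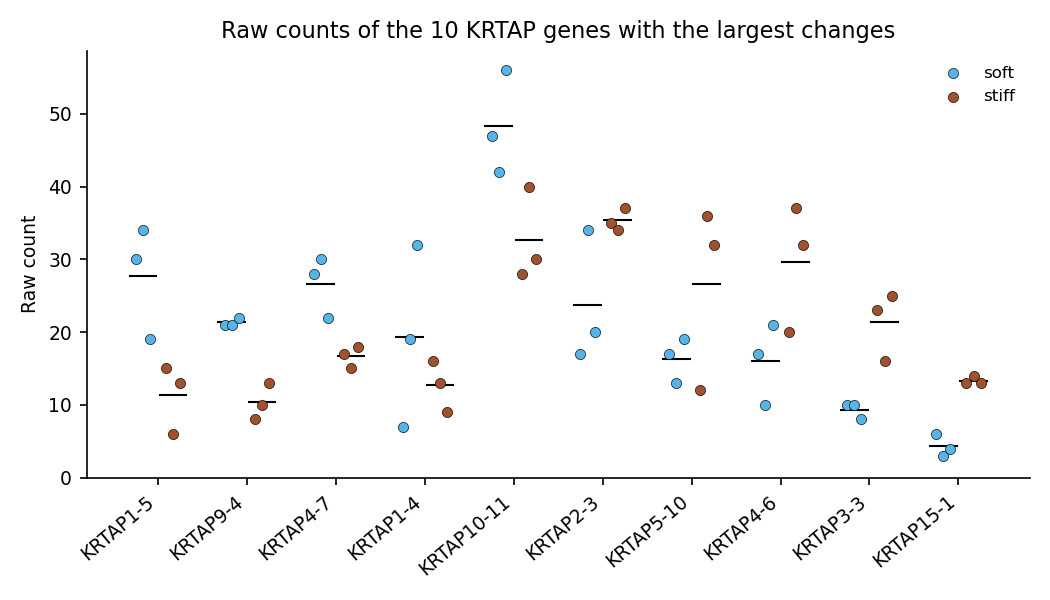
Raw counts in each library (points) and group means (bars) for the 5 KRTAP genes with the lowest and the 5 with the highest fold change of stiff over soft. KRTAP15-1 has 3 to 6 counts in soft gel and 13 or 14 in stiff gel, KRTAP1-5 has 19 to 34 and 6 to 15, and none of the 10 had an edgeR adjusted p under 0.05.

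Members with the most counts in their cluster overlapped between the groups. KRTAP10-9 had 54, 56 and 57 counts in soft gel and 48, 71 and 62 in stiff gel (log2 fold change 0.19 ± 0.19, edgeR adjusted p = 0.819). KRTAP5-7 had 45, 36 and 32 in soft gel and 30, 29 and 37 in stiff gel (−0.16 ± 0.25, adjusted p = 0.903). KRTAP16-1 had 30, 28 and 44 in soft gel and 31, 39 and 36 in stiff gel (0.13 ± 0.25, adjusted p = 0.924). For these 3 the stiff counts lay around the soft ones. KRTAP5-2 had 13, 13 and 27 in soft gel and 20, 37 and 17 in stiff gel (0.55 ± 0.32, adjusted p = 0.607), and KRTAP26-1 had 19, 26 and 9 in soft gel and 23, 26 and 16 in stiff gel (0.34 ± 0.32, adjusted p = 0.798). At the low end KRTAP5-6 was the 11p15 gene with the fewest counts, 15, 30 and 11 in soft gel and 19, 14 and 15 in stiff gel (−0.14 ± 0.35, adjusted p = 0.947). KRTAP12-4 had 5 to 7 counts in every library, KRTAP9-6 had 1 to 6 and KRTAP20-4 had 0 to 2, and these were too low to be tested. KRTAP10-12, the member with the highest GC content at 67.1%, had 13, 31 and 20 counts in soft gel and 27, 26 and 33 in stiff gel (0.50 ± 0.29, adjusted p = 0.609). KRTAP21-3, the member with the lowest at 36.4%, had 0, 2 and 1 in soft gel and 2, 5 and 3 in stiff gel and was not tested.

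Across all genes the fold change rose with GC content, and the family could be set beside that trend. Over all genes tested the median went from −0.04 under 40% GC through −0.01 between 45% and 50% to 0.08 between 60% and 65% and 0.19 at 65% and more (817 genes). Over these 22243 genes with a GC value the correlation was r = 0.17 (Spearman 0.19), as a description. Over the 56 KRTAP genes tested it was r = 0.05 (Spearman 0.17). The 9 tested members of 65% and more had a median of 0.09, and 2 of them lay above the band median of 0.19. That band is open at the top, and no member exceeded 67.1%, so members and band were not matched in GC content. The summed level of these 9 members with the 1 untested member was 114 ± 11.8 CPM in soft and 120 ± 5.72 in stiff gel (SD, n = 3 each), a ratio of 1.05. In the other bands, from low to high GC content, the ratios of summed levels were 1.72 under 40% (2 members of few counts), 0.858, 0.937, 0.998, 1.04 and, between 60% and 65%, 0.977. They did not move in 1 direction with GC content.

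A ratio within each library needs no scaling. Counts of the GC-rich clusters (median over 60%, 11p15 and distal chromosome 21, 22 genes) over those of the GC-poor cluster (under 50%, proximal chromosome 21, 33 genes) were 2.76, 2.66 and 3.61 in soft gel and 2.70, 2.91 and 3.40 in stiff gel. The means were 3.01 ± 0.525 and 3.00 ± 0.360 (SD, n = 3 each), stiff over soft 0.997, and the groups overlapped. Protein-coding genes over 60% against those under 50% GC gave 0.493, 0.501 and 0.513 in soft gel and 0.533, 0.554 and 0.566 in stiff gel, a shift of 1.10 times without overlap. The spread of the KRTAP ratio between libraries was wider than a shift of that size, so a like shift of the family was not detectable at this depth. Soft replicate 3 and stiff replicate 3 had the highest KRTAP ratios of their groups. Leaving out 1 library gave stiff over soft from 0.931, without stiff replicate 3, to 1.11, without soft replicate 3.

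**Figure D4:**
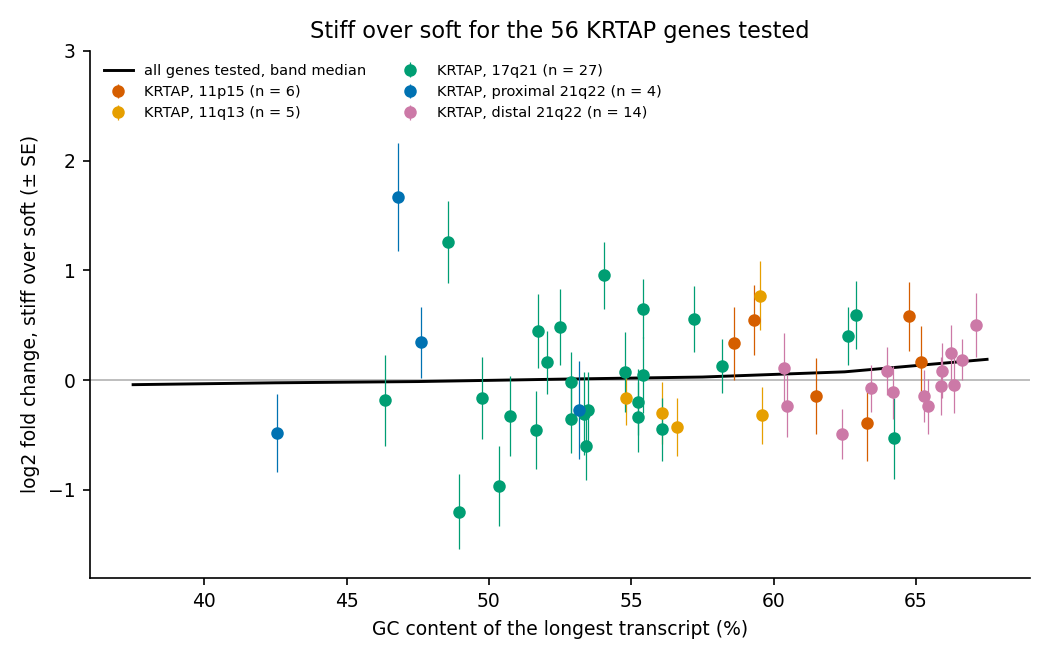
Log2 fold change of stiff over soft (± SE) against GC content for the 56 KRTAP genes tested, coloured by cluster, with the median of all genes tested in bands of GC content (line). The line rises to 0.19 at 65% and more, and the KRTAP genes scatter on both sides of it, from −1.20 for KRTAP1-5 to 1.67 for KRTAP15-1. The last band is open at the top, and no member exceeds 67.1%.

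Other genes of the hair programme were read from the same fit, where 0.451% of all genes tested were called and 9.51% had an unadjusted p under 0.05. At those shares a count of 0 in lists of this size does not set them apart from other genes. DESeq2 with its filters left KRT14, at 49 to 103 counts, without an adjusted p. Its 0 in these lists is therefore no test of genes with few counts. Of 17 hair keratin genes, whose filaments the keratin-associated proteins bind, 0 were called higher or lower by edgeR, 0 had an unadjusted p under 0.05, and 0 were called by DESeq2 or limma-voom. Their median log2 fold change was 0.06 and their median level 25.1 counts per kb at a median GC content of 58.8%. KRT85, an early hair keratin, had 88, 91 and 79 counts in soft gel and 62, 75 and 80 in stiff gel (log2 fold change −0.18 ± 0.16, edgeR adjusted p = 0.790), and KRT86 and KRT31 had values of 0.12 and 0.07. Of 28 regulators and other follicle proteins 0 were called by any of the 3 tools, with 2 at an unadjusted edgeR p under 0.05 and a median of 0.10. HOXC13 had 79, 57 and 77 counts in soft gel and 73, 87 and 80 in stiff gel (0.25 ± 0.17, adjusted p = 0.681). FOXN1 had 109, 107 and 130 in soft gel and 97, 129 and 102 in stiff gel (−0.00 ± 0.14, adjusted p = 0.997). TCHH, which encodes trichohyalin of the inner root sheath, had 200 to 223 counts in soft gel and 201 to 233 in stiff gel (0.11 ± 0.10, adjusted p = 0.804). Raw counts of the groups overlapped for all 3. Scaled values of HOXC13 did not, at 28.98, 20.6 and 29.03 CPM in soft gel and 30.01, 32.7 and 30.4 in stiff gel, and those of FOXN1 and TCHH did.

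Markers of other cell types were checked beside the family. Of 12 squamous epithelial markers edgeR called KRT14 higher in stiff (log2 fold change 0.69 ± 0.17, adjusted p = 0.0281) and 0 lower, and 3 had an unadjusted p under 0.05, KRT14, KRT5 and KRT17. DESeq2 and limma-voom called 0 of the 12, with an adjusted p for KRT14 of 0.496 in DESeq2 without its filters and 0.11003 in limma-voom. DESeq2 with its filters gave KRT14 no adjusted p. Leaving out 1 library gave KRT14 an edgeR adjusted p of 0.0130 to 0.320, and it missed the threshold when the library left out was replicate 1 (0.158) or 3 (0.1096) of soft, or replicate 1 (0.137) or 2 (0.320) of stiff. Of 6 fibroblast, 4 blood and 4 melanocyte markers 0 were called by edgeR, DESeq2 or limma-voom and 0 had an unadjusted edgeR p under 0.05. With 0.451% of all genes called and 9.51% at an unadjusted p under 0.05, counts of 0 in lists this short do not set them apart from other genes. No marker was at 0 counts in any library. Median counts per kb were 20.3 for squamous epithelial markers, 29.2 for hair cortex and cuticle markers, 8.96 for fibroblast, 7.49 for blood and 8.78 for melanocyte markers. Hair markers thus had more counts for their length than the markers of the labelled cell type, at a median GC content of 59.7% against 56.1%. The part of GC content in that order was not tested.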

How the data were processed

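The authors deposited 1 table of raw counts per gene symbol for 3 soft and 3 stiff libraries of vesicle RNA. Per the submitters' processing notes, the tools were Trim Galore 0.4.2, cutadapt 1.9.1, FastQC 0.11.7, STAR 2.6.1e, featureCounts 1.6.2 and DESeq2 1.26.0, with build hg38; annotation, strand setting and the treatment of multi-mapping reads are not given in the sources used here. Columns were matched by library name. In the descriptions 2 stiff libraries share a replicate number, and the titles' numbers were used.

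Stiff was compared with soft in edgeR 4.0.16 (R 4.3.3) by robust quasi-likelihood F tests (two-sided) after filterByExpr and TMM, group as the single term, and Benjamini-Hochberg adjustment over all 31074 genes tested, called under 0.05. Standard errors come from the F statistic. DESeq2 1.42.0 and limma-voom 3.58.1 were alternatives. GENCODE 29 gave exon lengths and GC content for 26194 genes (68.6%), all members included, and RefSeq gave gene positions (GRCh38). Genes without a value were left out of GC comparisons.

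Named members had the highest or lowest mean count of a cluster, the highest or lowest GC content, an adjusted p under 0.05, or 1 of the 5 largest rises or falls. Members and lists were chosen with earlier results of these data known. Reads were amplified by PCR and carry no molecular identifiers, so the limit given for a count of 0 covers counting error only. Standard errors and SDs include the spread between libraries.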

Additional observations from a re-analysis of the deposited data

How the results depend on the processing

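Over 17 alternative fits the count of KRTAP genes called was 0, except for 5 under library totals alone (KRTAP15-1 higher and 4 lower), where all genes gave 4194 calls (13.5%), and 1, KRTAP1-5, without soft replicate 3. In the DESeq2 fit with its filters the named members tested had no adjusted p, so they could not be called. Leaving out 1 library gave 60 to 136 calls over all genes, where the full fit gave 140, and 0 to 1 KRTAP calls. All genes gave 67 calls with DESeq2, 43 with DESeq2 without its filters, 91 with limma-voom, 56 after GC correction (28 higher and 28 lower) and 63 after GC correction with the replicate block. With the replicate number as a block all genes gave 173 calls and KRTAP genes 0. Libraries of the same number did not deviate together more than others (r = 0.00241, 0.00346 and −0.00363, against −0.00793 to 0.00529 for unlike numbers). Counting noise in small counts could hide a pairing, so whether the numbers pair libraries was not settled.

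The median log2 fold change of the KRTAP genes was −0.33 under library totals alone, 0.00929 with at least 20 counts in 3 libraries, −0.17 after GC correction and −0.17 with the block added, and −0.14 to −0.0182 leaving out 1 library. By cluster, library totals alone gave −0.0148 at 11p15, −0.57 at 11q13, −0.43 at 17q21, −0.23 in the proximal and −0.32 in the distal cluster. The filter at 20 counts gave 0.44 at 11p15, 0.0417 at 17q21 and 0.34 in the proximal cluster, and no filter gave −0.0144 at 17q21. GC correction gave −0.18 in the distal cluster, and −0.18 with the block. Leaving out 1 library gave 0.15 to 0.37 at 11p15, −0.45 to −0.0129 at 11q13, −0.25 to 0.0204 at 17q21, −0.49 to −0.0281 in the proximal cluster (7 to 10 genes tested, 4 in the full fit) and −0.08 to −0.00326 in the distal cluster. The correlation with GC content was 0.20 with the filter at 20 counts and −0.0700 to 0.21 leaving out 1 library. The ratio of GC-rich over GC-poor clusters, stiff over soft, was 0.931 to 1.11 leaving out 1 library. Median counts per kb over coding length alone were 32.1, and over the RefSeq span, chosen after seeing the data, 17.4. Among named members the direction reversed, none of them called, for KRTAP16-1 (−0.14) and KRTAP10-9 (−0.0794) under library totals alone, for KRTAP5-6 (0.36) and KRTAP16-1 (−0.00521) without soft replicate 2, and for KRTAP1-4 (0.0620) without soft replicate 3. Leaving out 1 library gave −0.39 to 0.36 for KRTAP5-6, −0.00521 to 0.38 for KRTAP16-1 and −0.93 to 0.0620 for KRTAP1-4. Causes were not tested. Small counts limit single members, since a standard error of 0.31 on the log2 scale was the median.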
